A study of Homo sapiens with 26 samples.

Results

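The genes described here are 38 genes of ribosome biogenesis and the nucleolus, chosen as a list of gene symbols and followed across every library. All 38 symbols matched 1 row each among the 16430 genes of the count tables and among the 64235 entries of the FPKM tables. Ribosomes are built mainly in the nucleolus, where RNA polymerase I transcribes the long precursor of the ribosomal RNAs. Small nucleolar RNA-protein particles of the box C/D and box H/ACA classes modify this precursor, and sets of assembly factors fold, cut and export the small and the large subunit. The demand for new ribosomes follows growth and division, and in leukaemia cells many of these genes are known targets of the transcription factor MYC.

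The RNA came from MV4-11, a human myelomonocytic leukaemia line that depends on a mutated, constantly active FLT3 receptor kinase. In the first experiment (18 libraries, 6 groups of 3) the cells received DMSO for 48 h, 100 nM dexamethasone for 48 h, 10 nM of the FLT3 inhibitor quizartinib for 48 h or 5 days, or both drugs for 48 h or 5 days, with dexamethasone added on day 3 of the 5 day combination. Dexamethasone is a synthetic glucocorticoid, and no DMSO or dexamethasone library of 5 days was analysed here, so time and drug cannot be told apart against DMSO at 5 days. In the second experiment (8 libraries, 4 groups of 2) untreated cells were set beside cells that had survived 48 h in 100 nM quizartinib, taken at once or after 13 or 30 days without drug. All 26 libraries came from a single cell line, and nothing in the labels tells if a replicate was its own culture, so p-values measure the spread among libraries, which may be technical.

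Library totals in the first experiment ran from 14795190 to 24990476 counts, and the depth behind the FPKM values (fragment counts per unit of transcript length and of sequencing depth) is unknown. Of the 8 myeloid markers examined, 7 stood at 1 FPKM or more in all 8 libraries, and all 4 T cell and all 4 erythroid markers stayed below 1 FPKM in all 8. So did 2 of 4 B cell markers and 4 of 6 epithelial and fibroblast markers, and none of these lists had a marker at 1 FPKM or more in every library. The small cytoplasmic and nuclear RNAs 7SL and 7SK took 10.2% to 12.4% of the counts of a DMSO library and 16.0% to 18.8% of a 48 h quizartinib library. In the second experiment the 13 day libraries stood apart from each other, so the medians of the 38 genes that rest on them are given with and without each.

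Levels between genes can be compared only per length, and in untreated cells they spanned a wide range. NPM1 (nucleophosmin, a histone and ribosomal protein chaperone of the nucleolus) had 2235 and 2563 FPKM, and NCL (nucleolin, an abundant protein that binds ribosomal RNA precursors) had 1748 and 1720.3 FPKM. In GENCODE 29 on GRCh38, NPM1 lies at chr5:171387116-171411137 on the + strand and NCL at chr2:231453531-231483641 on the - strand. FBL (fibrillarin, the methyltransferase of the box C/D particles, chr19:39834458-39846414, - strand) followed with 954 and 1063 FPKM, and NOP56, a scaffold of the same particles, had 562 and 633 FPKM. These 4 kept the same order in both untreated libraries. At the other end stood HEATR1 with 16.6 and 15.3 FPKM, WDR3 with 12.7 and 9.14 FPKM, and UTP20 with 4.31 and 4.36 FPKM, all parts of the large particle that makes the small subunit.

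Quizartinib at 10 nM for 48 h was compared with DMSO to ask what FLT3 inhibition does to these transcripts. All 38 genes fell, and none rose (edgeR's quasi-likelihood test, Benjamini-Hochberg adjusted p under 0.05 over 16430 genes). Among all genes 30.4% fell and 29% rose under the same rule, and among genes at a mean of 10 CPM (counts per library total, with totals adjusted by TMM) or more 41% fell. The median log2 fold change of the 38 genes was -1.21, against 0.02 over all genes, and it ran from -1.80 in LYAR to -0.69 in WDR12. A fall of at least 2-fold was seen in 26 of the 38 genes and in 12.1% of all genes. For each of the 38 genes, every quizartinib library was lower than every DMSO library, which held for 31.9% of all genes. In bulk RNA, fewer cells that express a gene and less RNA per cell cannot be told apart.

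**Figure D1:**
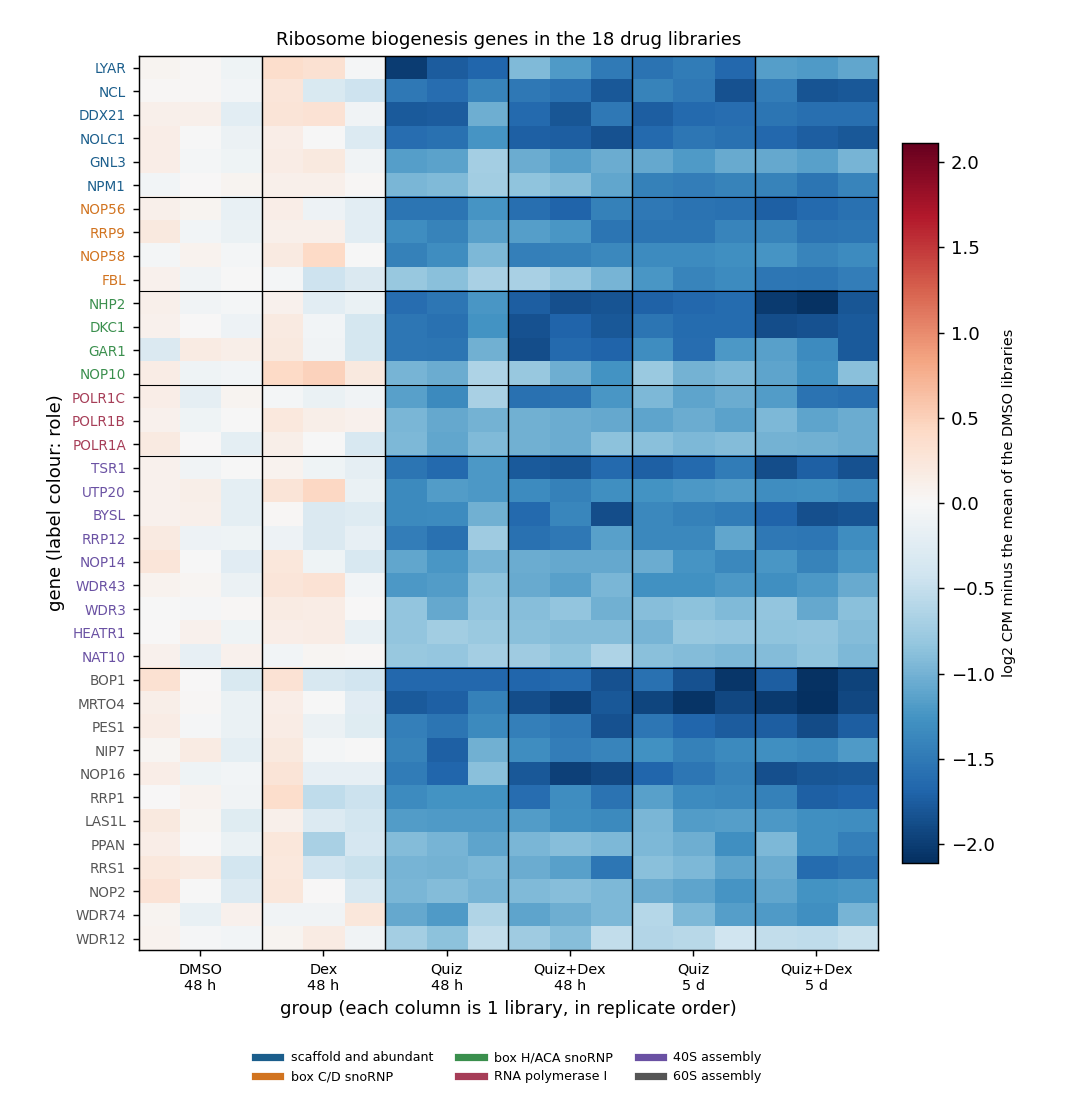
Each row is 1 of the 38 genes and each column 1 of the 18 libraries of the first experiment; colour gives log2 CPM minus the mean of the 3 DMSO libraries, and label colours give the role. All quizartinib columns, with or without dexamethasone, are blue throughout, while the dexamethasone columns stay pale.

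Together the 38 genes took 0.53% to 0.62% of the counts in the DMSO libraries, 0.49% to 0.65% with dexamethasone, 0.25% to 0.27% with quizartinib at 48 h, and 0.20% to 0.23% with both drugs at 48 h. The part of the higher 7SL and 7SK share in these values was not tested, but with libraries scaled to totals without those RNAs all 38 genes still passed as lower at 48 h, with a median of -1.10 where all genes had a median of 0.14.

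The nucleolar scaffold group fell with a median log2 fold change of -1.48 over its 6 genes. For NCL the DMSO libraries had 1150.2, 1154 and 1088 CPM and the quizartinib libraries 396, 373 and 430.2 CPM. The groups lay far apart, and the log2 fold change of NCL was -1.5002 ± 0.16 (SE; edgeR adjusted p = 3.7e-07). LYAR (chr4:4267701-4290169, - strand), a zinc-finger protein that takes part in processing of ribosomal RNA precursors, fell most of all 38 genes, from 36.0, 35.3 and 32.4 CPM to 8.62, 10.3 and 10.8 CPM. Its log2 fold change was -1.80 ± 0.14 (edgeR adjusted p = 5e-09). NPM1 fell least in the group, from 812, 851 and 885 CPM to 433, 446 and 510.3 CPM (-0.87 ± 0.08 on the log2 scale, edgeR adjusted p = 5.7e-08). Between them lay the RNA helicase DDX21 (-1.48), the particle chaperone NOLC1 (-1.47) and the GTPase GNL3, or nucleostemin (-0.99). In DDX21 the quizartinib library numbered 3 stood at 179.6 CPM, above the 107 and 108 CPM of the other libraries and below the lowest DMSO value of 313 CPM.

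All 4 box C/D proteins fell, with a median of -1.25. NOP56 went from 266, 254 and 219 CPM to 84.6, 84.5 and 104 CPM (log2 fold change -1.44 ± 0.11, edgeR adjusted p = 4.7e-09), the strongest fall of the group. FBL went from 225, 200.1 and 209 CPM to 121, 115 and 131 CPM, and its log2 fold change of -0.79 ± 0.10 (edgeR adjusted p = 2.3e-06) was the smallest. NOP58, the partner of NOP56, stood at -1.21, and RRP9, a protein specific to the U3 particle that guides the first cuts, at -1.29. The 4 box H/ACA proteins, which hold the enzyme that turns uridine into pseudouridine, fell with a median of -1.40. NHP2 went from 104, 92.8 and 94.9 CPM to 31.8, 33.7 and 41.5 CPM (log2 fold change -1.45 ± 0.10, edgeR adjusted p = 2.6e-09). DKC1, the pseudouridine synthase dyskerin, was nearly equal at -1.45, and GAR1 stood at -1.35. NOP10, the smallest core protein, went from 65.1, 54.9 and 56.3 CPM to 29.8, 28.3 and 37.2 CPM, a log2 fold change of -0.89 ± 0.13.

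The 3 subunits of RNA polymerase I fell by similar amounts. POLR1A, the largest and catalytic subunit, went from 211, 185 and 160.4 CPM to 95.3, 86.1 and 96.97 CPM (log2 fold change -0.999 ± 0.11, edgeR adjusted p = 5e-07). POLR1C, which RNA polymerase III also uses, went from 32.7, 26.02 and 30.8 CPM to 13.5, 11.7 and 18.5 CPM (-1.04 ± 0.15). POLR1B, the second-largest subunit, stood between them at -1.01 ± 0.07, with 3 quizartinib libraries from 33.3 to 36.0 CPM.

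Of the 9 small-subunit assembly genes, TSR1, a late-acting factor related to GTPases, fell most. Its DMSO libraries had 129, 115 and 120.1 CPM and its quizartinib libraries 41.8, 38.9 and 52.3 CPM (log2 fold change -1.45 ± 0.10, edgeR adjusted p = 3e-09). NAT10, the acetyltransferase that modifies the small-subunit RNA, fell least, from 145, 122 and 145 CPM to 78.8, 77.8 and 83.1 CPM (-0.78 ± 0.08, edgeR adjusted p = 1.6e-07). Parts of the early processing particle lay from -1.25 in UTP20 through -1.08 in WDR43 and -0.91 in WDR3 to -0.78 in HEATR1, with NOP14 at -1.11. BYSL (bystin) stood at -1.23 and RRP12, a factor known for export of small subunits, at -1.21. RRP12 was another gene in which the quizartinib library numbered 3 was high, with 42.8 CPM beside 26.3 and 24.2 CPM, still below the lowest DMSO value of 67.1 CPM.

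The 12 large-subunit genes had a median of -1.24 and the widest range. BOP1, PES1 and WDR12 form 1 complex, called PeBoW, that is needed to process the large-subunit RNA, and they fell by unequal amounts. BOP1 went from 190.2, 153 and 122 CPM to 48.3, 48.6 and 48.5 CPM (-1.68 ± 0.18 on the log2 scale, edgeR adjusted p = 5e-07), and PES1 stood at -1.44 ± 0.12. WDR12 fell least of all 38 genes, from 83.1, 78.1 and 76.3 CPM to 48.3, 43.7 and 55.2 CPM (-0.69 ± 0.10, edgeR adjusted p = 1.4e-05). The rest lay between -1.63 in MRTO4, a ribosomal stalk protein stand-in during assembly, and -0.95 in WDR74. Among them were NIP7 (-1.35), NOP16 (-1.30), RRP1 (-1.28), LAS1L, a part of the nuclease that cuts the internal spacer (-1.20), PPAN (-1.01), RRS1, which helps bring in the small ribosomal RNA of the large subunit (-0.996), and NOP2, an RNA methyltransferase (-0.97). Differences between roles or between these genes were not tested.

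**Figure D2:**
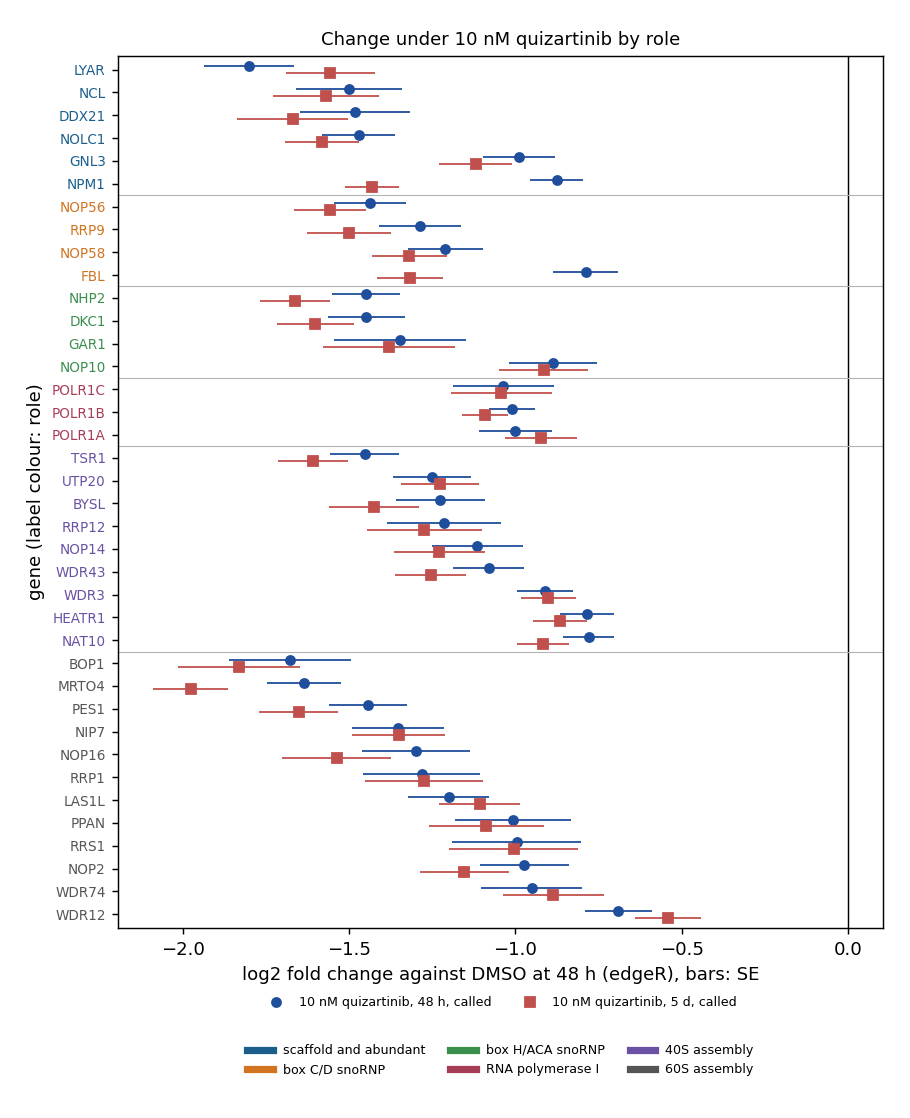
Log2 fold change against DMSO at 48 h for 10 nM quizartinib at 48 h (circles) and 5 days (squares), with bars of 1 SE, for the 38 genes sorted by role. All 76 points lie left of 0, and NPM1 and FBL are the genes whose 5 day point moved farthest to the left.

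Some of these values rest on reads that other genes may share, and whether the authors' counting used the strand is not stated in the sources used here. In GENCODE 29 on GRCh38, NPM1 has 45 named pseudogenes, 83.2% of the exon bases of PPAN lie in the readthrough gene PPAN-P2RY11, and 70.9% of those of NOP2 lie in AC006064.6. NHP2 shares 43.8% of its exon bases with a gene on the opposite strand. The values of these 4 genes are therefore uncertain, and others have smaller overlaps. HEATR1 shares 23.9% and TSR1 21.4% of exon bases with a gene on the opposite strand. WDR74 shares 9.36% with the small RNA gene RNU2-2P on its own strand. In all, 7 of the 38 genes share exon bases with a gene on the same strand and 14 on the opposite strand, some by few bases. Introns of 8 of the 38 genes carry 27 genes of small nucleolar RNAs.

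Of 120 further ribosome biogenesis factors, 102 fell and 5 rose at 48 h, with a median log2 fold change of -0.72; the split was 14 and 1 of 19 RNA polymerase I factors, 36 and 1 of 42 small-subunit factors, 41 and 3 of 48 large-subunit factors, and 11 and 0 of 11 exosome subunits. The lowest were EBNA1BP2 (-1.91 ± 0.14), a large-subunit factor, TCOF1 (-1.85 ± 0.16), the treacle protein of ribosomal DNA transcription, and RRP7A (-1.73 ± 0.14). The highest were NOP53 (0.82 ± 0.14), POLR1D (0.36 ± 0.08) and RRP8 (0.31 ± 0.09), all called higher by edgeR. Ribosomal protein genes, whose products are the building blocks of the subunits, gave another count: 31 of 62 rose and 1 fell, with a median of 0.31, and 50 rose and 1 fell with scaling to totals without 7SL and 7SK. Differences between these lists were not tested.

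MYC itself had 437, 395 and 609 CPM in DMSO and 301, 304 and 377 CPM with quizartinib at 48 h. It fell by 0.55 ± 0.15 on the log2 scale (edgeR adjusted p = 0.004), and all 38 genes had a lower log2 fold change than MYC, a difference that was not tested. The motif CACGTG, the E-box that MYC and related factors are known to bind and which reads alike on both strands, was searched in the 300 bases from 250 before to 50 after each RefSeq start site (GRCh38.p14). Windows existed for 33 of the 38 genes, and 15 of them (45.5%) held the motif, against 2396 of 27305 genes with a window (8.77%). Base composition was not matched between these sets, and a match is a description of letters, not of binding. The motif lay within 15 bases of the start site at 10 places, shown here with 12 bases on either side, the motif in capitals.
WDR43, chr2:28894658-28894687, + strand: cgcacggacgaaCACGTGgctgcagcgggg
RRP9, chr3:51941892-51941921, - strand: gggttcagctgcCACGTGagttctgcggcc
FBL, chr19:39846356-39846385, - strand: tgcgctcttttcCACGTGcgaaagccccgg
GNL3, chr3:52686026-52686055, + strand: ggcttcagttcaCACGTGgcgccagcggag
UTP20, chr12:101280083-101280112, + strand: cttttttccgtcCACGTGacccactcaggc
NOP10, chr15:34343130-34343159, - strand: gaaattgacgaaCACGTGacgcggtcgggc
PES1, chr22:30591880-30591909, - strand: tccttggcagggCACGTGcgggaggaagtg
MRTO4, chr1:19251807-19251836, + strand: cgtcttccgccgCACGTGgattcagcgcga
NAT10, chr11:34105602-34105631, + strand: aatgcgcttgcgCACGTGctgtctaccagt
NOP14, chr4:2963374-2963403, - strand: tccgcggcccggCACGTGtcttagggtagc

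NOP10 was the gene with the motif at more than 1 place in its window. The 250 bases before its start site (GRCh38.p14, chr15:34343137-34343386, - strand, 5′ to 3′, motif in capitals) show both.
NOP10: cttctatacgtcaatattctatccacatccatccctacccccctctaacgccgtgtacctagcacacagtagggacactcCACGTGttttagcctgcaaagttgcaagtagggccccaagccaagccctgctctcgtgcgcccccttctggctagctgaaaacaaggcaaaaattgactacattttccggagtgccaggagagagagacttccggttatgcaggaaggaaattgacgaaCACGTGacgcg
The median log2 fold change at 48 h was -1.23 for the 15 genes with it (-1.80 to -0.78) and -1.12 for the 18 without it (-1.5002 to -0.69). In the survivors of 100 nM the medians were -1.38 and -1.43. None of these differences was tested.

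At 5 days of quizartinib all 38 genes were again lower than DMSO at 48 h by edgeR (32.1% of all genes fell and 30.7% rose), with a median log2 fold change of -1.30 against 0.02 over all genes. This comparison shares the DMSO libraries with the one at 48 h. The largest falls were in MRTO4 (-1.98 ± 0.11), BOP1 (-1.83 ± 0.18) and DDX21 (-1.67 ± 0.17), and the smallest in WDR12 (-0.54 ± 0.10), HEATR1 (-0.87 ± 0.08) and WDR74 (-0.89 ± 0.15).

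Setting 5 days directly against 48 h of quizartinib, 2 of the 38 genes fell further and none rose, where 2.28% of all genes fell and 0.889% rose. NPM1 had 433, 446 and 510.3 CPM at 48 h and 317, 309 and 319 CPM at 5 days, with no overlap (log2 fold change -0.56 ± 0.08, edgeR adjusted p = 0.001). FBL had 121, 115 and 131 CPM at 48 h and 89.8, 80.3 and 84.6 CPM at 5 days, also with no overlap (-0.53 ± 0.10, edgeR adjusted p = 0.0073). Without the 5 day library numbered 2 the FBL call was lost. Both genes are among those that fell least at 48 h. NCL had 427, 398 and 318 CPM at 5 days, which overlapped its 48 h values. Between the same groups 28 of the 62 ribosomal protein genes and 5 of the 120 other biogenesis factors fell, and none of either list rose; by DESeq2 it was 43 of the ribosomal protein genes and 6 of the others. Against DMSO the ribosomal protein genes had a median of -0.14 at 5 days, which changed sign to 0.04 with scaling to totals without 7SL and 7SK.

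With dexamethasone alone the fold changes of the 38 genes were small. None was called in either direction by edgeR (6.63% of all genes fell and 5.5% rose), with a median log2 fold change of -0.04 and a range from -0.25 to 0.38. At an unadjusted p under 0.05, a rule for which no share of all genes is given here or below, there were 3: FBL, POLR1B and NOP10. NOP10 had 65.1, 54.9 and 56.3 CPM in DMSO and 78.6, 82.3 and 68.0 CPM with dexamethasone, without overlap (0.38 ± 0.13, edgeR adjusted p = 0.071). Libraries of the same number deviated together in this comparison, but so did libraries numbered 1 with those numbered 2. With the replicate number as a block NOP10 was called higher (0.38 ± 0.12, edgeR adjusted p = 0.049) and FBL lower (-0.26 ± 0.08, edgeR adjusted p = 0.043). DESeq2 also called NOP10 higher (adjusted p = 0.035). NCL had 1349.7, 901 and 831 CPM with dexamethasone, so its first library lay above every DMSO library and the others below. With the 48 h libraries numbered 3 left out, 5 genes were called higher: NOP58, UTP20, LYAR, WDR43 and NOP10. Without the dexamethasone library numbered 1 the calls were 3 and all lower: FBL, PPAN and RRP1. Without the dexamethasone library numbered 3 UTP20 and NOP10 were called higher.

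With quizartinib and dexamethasone together for 48 h all 38 genes fell again against DMSO by edgeR (31.8% of all genes fell and 31.3% rose), with a median of -1.33 against 0.04 over all genes. NOP16 (-1.88 ± 0.17), MRTO4 (-1.88 ± 0.11) and NHP2 (-1.81 ± 0.10) fell most, and WDR12 (-0.71 ± 0.10), NAT10 (-0.75 ± 0.08) and FBL (-0.82 ± 0.10) least. These are the same DMSO libraries as above.

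Against quizartinib alone at 48 h, 3 of the 38 genes were called for the combination, 2 lower and 1 higher. Among all genes 4.63% fell and 5.62% rose, or 10.3% in either direction, so the 38 genes were not called more often than genes at large. LYAR had 8.62, 10.3 and 10.8 CPM with quizartinib and 18.0, 15.1 and 12.2 CPM with both drugs. Its lowest combination library lay above its highest quizartinib library, and it rose by 0.61 ± 0.14 on the log2 scale (edgeR adjusted p = 0.0062), while staying below the 32.4 CPM of the lowest DMSO library. NOP16, a factor of large-subunit assembly, had 21.3, 18.5 and 32.0 CPM with quizartinib and 17.1, 15.0 and 15.8 CPM with both drugs (-0.59 ± 0.17, edgeR adjusted p = 0.03). NHP2 had 31.8, 33.7 and 41.5 CPM and then 29.2, 26.9 and 27.4 CPM (-0.36 ± 0.10, edgeR adjusted p = 0.035). Neither gene overlapped between the groups, but both calls were lost without the quizartinib library numbered 3 and without the combination library numbered 2 or 3, and NHP2 also without the combination library numbered 1. In the fit of these 2 groups alone the NOP16 and NHP2 calls were also lost, and LYAR was still called higher (edgeR adjusted p = 0.037). The LYAR call was lost without the quizartinib or the combination library numbered 1. The 7SL and 7SK share averaged 17.3% with quizartinib and 25.05% with both drugs. By library it was 17.1%, 16.0% and 18.8% with quizartinib, and 22.1%, 21.5% and 31.6% with both drugs. Its part in these calls was not tested, but all 3 held with scaling to totals without those RNAs.

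**Figure D3:**
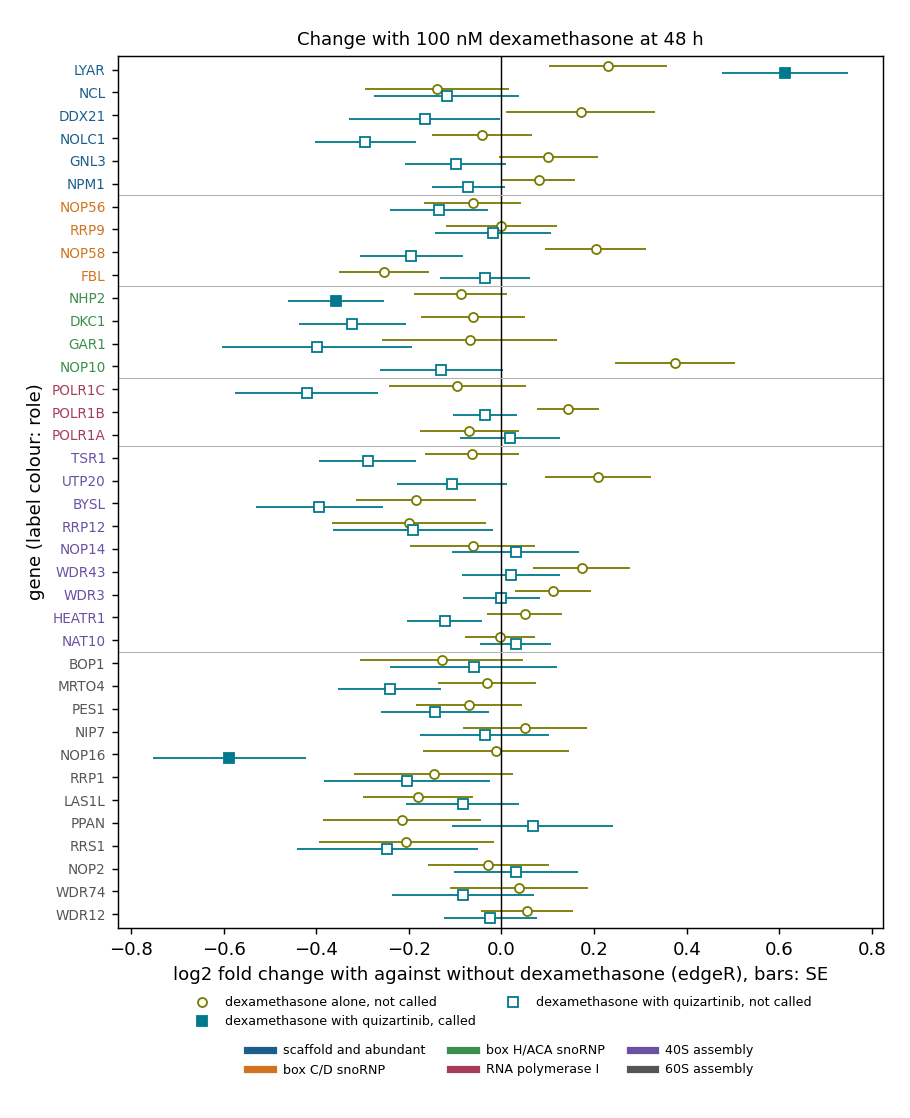
Log2 fold change with against without 100 nM dexamethasone at 48 h, in cells without quizartinib (circles) and with it (squares), with bars of 1 SE. Filled points were called; LYAR at 0.61, NHP2 at -0.36 and NOP16 at -0.59 are the filled ones, and the circles lie between -0.25 and 0.38.

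Whether dexamethasone acted differently with quizartinib than without it was tested as an interaction. None of the 38 genes was called by edgeR (0.749% of all genes were lower and 1.49% higher) or by DESeq2, and 3 had an unadjusted p under 0.05: NOP16 at -0.58 ± 0.23, NOP10 at -0.50 ± 0.19 and NOP58 at -0.40 ± 0.16. LYAR stood at 0.38 ± 0.19, so its rise with quizartinib was not shown to differ from its 0.23 without. At 5 days none of the 38 genes was called for the combination against quizartinib by edgeR (4.04% of all genes fell and 4.6% rose) or by DESeq2, and 4 had an unadjusted p under 0.05. Of the 38 fold changes 29 were negative, with a median of -0.105 against -0.008 over all genes. In 13 genes every combination library was lower than every quizartinib library, which held for 16.7% of all genes. In LYAR and DDX21 every one was higher, which held for 16.1%. LYAR had 11.8, 12.5 and 10.9 CPM with quizartinib and 15.4, 15.1 and 16.1 CPM with both drugs, without overlap (0.40 ± 0.14, edgeR adjusted p = 0.08). The other 3 genes at an unadjusted p under 0.05 were NHP2 at -0.30 ± 0.11, POLR1C at -0.40 ± 0.16 and BYSL at -0.37 ± 0.14. In the fit of these 2 groups alone LYAR was called higher, and NHP2, POLR1C, BYSL and DKC1 lower. The effect of dexamethasone at 5 days minus that at 48 h was called for none of the 38 genes by edgeR or DESeq2, and none had an unadjusted p under 0.05 (0.0487% of all genes were lower and 0% higher).

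Survivors of 48 h in 100 nM quizartinib were compared with untreated cells in the second experiment. Of the 38 genes 27 fell and none rose (limma on log2(FPKM + 1), adjusted p under 0.05 over 18098 genes), where 6.39% of all genes fell and 8.14% rose. All 38 fold changes were negative, with a median of -1.43 against 0.18 over all genes, and in 36 genes both survivor libraries were lower than both untreated libraries, which held for 26.8% of all genes. The calls rest on few libraries: no call among the 38 genes held without any 1 of the 4 libraries compared. Without either 13 day library, which enters only the estimate of spread, 34 were called. Under those fits 12.2% of all genes fell without the first and 12.5% without the second.

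**Figure D4:**
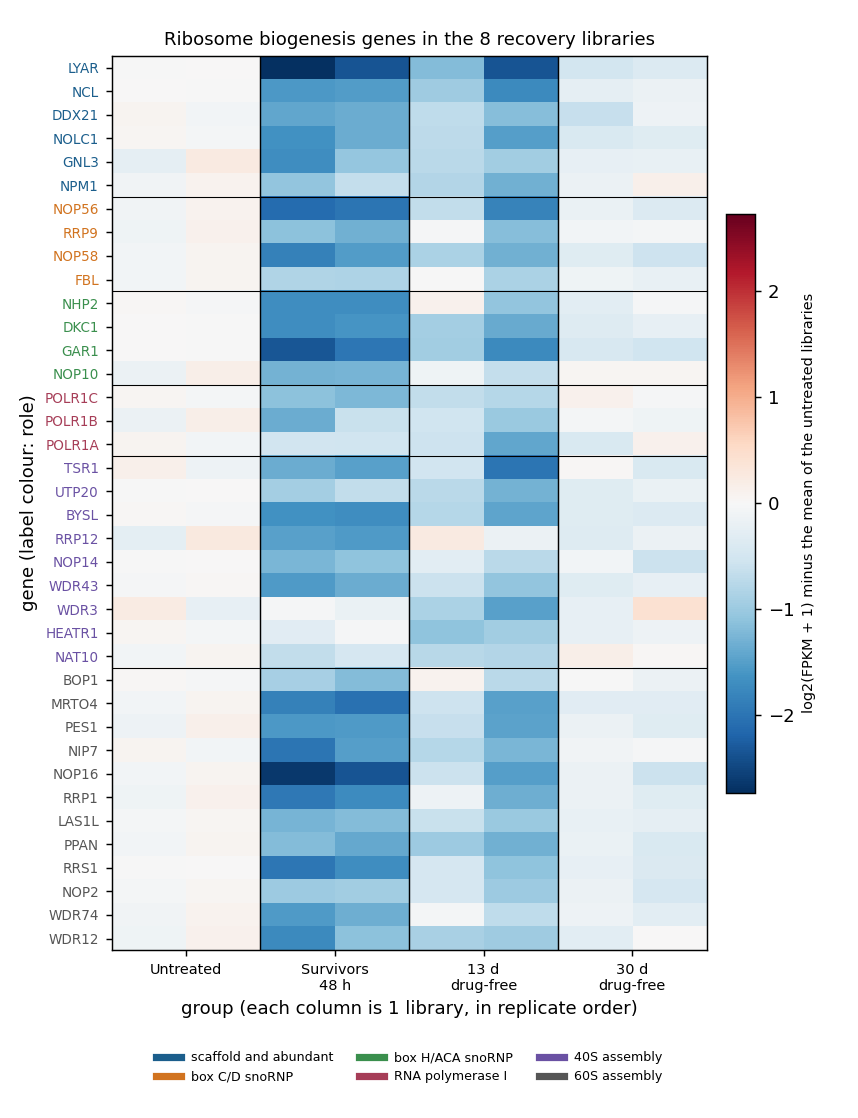
Each row is 1 of the 38 genes and each column 1 of the 8 libraries of the second experiment; colour gives log2(FPKM + 1) minus the mean of the 2 untreated libraries. The survivor columns are the darkest blue for most genes, the second 13 day column is bluer than the first in 37 genes (HEATR1 is the exception), and the 30 day columns are pale.

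LYAR fell most, from 56.2 and 56.9 FPKM to 7.68 and 10.2 FPKM (log2 fold change -2.54 ± 0.38, limma adjusted p = 0.023). NOP16 fell from 128 and 143 FPKM to 20.9 and 25.8 FPKM (-2.49 ± 0.32, limma adjusted p = 0.019), and GAR1 from 56.9 and 56.3 FPKM to 10.5 and 13.6 FPKM (-2.15 ± 0.29, limma adjusted p = 0.02). In each the survivor libraries lay close together and far below the untreated ones. NCL fell from 1748 and 1720.3 FPKM to 583 and 602 FPKM (-1.55 ± 0.25, limma adjusted p = 0.025). NOP56, MRTO4 and NHP2 stood at -2.04, -1.95 and -1.70, and the smallest falls that were called were in NOP2 (-0.96 ± 0.22), NOP14 (-1.17 ± 0.24) and POLR1C (-1.17 ± 0.17). Called were all 4 box H/ACA proteins, 11 of 12 large-subunit genes, 4 of 9 small-subunit genes and 1 of 3 polymerase subunits. Such counts depend on the spread of each gene as well as its change, and differences between roles were not tested.

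The 11 genes not called had negative values too. NPM1 had 2235 and 2563 FPKM in untreated cells and 1132 and 1520.5 FPKM in survivors, without overlap (-0.87 ± 0.25, limma adjusted p = 0.064). FBL had 954 and 1063 FPKM and then 568 and 564 FPKM (-0.83 ± 0.27, limma adjusted p = 0.087). BOP1 (-1.04 ± 0.28), RRP9 (-1.22 ± 0.36), TSR1 (-1.42 ± 0.47) and POLR1B (-0.99 ± 0.31) were not called either (limma adjusted p = 0.056, 0.069, 0.085 and 0.078). UTP20 stood at -0.80 ± 0.28, NAT10 at -0.57 ± 0.16 and POLR1A at -0.53 ± 0.33. HEATR1 had 16.6 and 15.3 FPKM and then 12.8 and 15.6 FPKM (-0.17 ± 0.20), and WDR3 had 12.7 and 9.14 FPKM and then 10.5 and 9.34 FPKM (-0.11 ± 0.34). These last 2 genes overlapped between the groups, and they are among the lowest of the 38 in level. Of the other biogenesis factors 45 of 117 tested fell and 1 rose, and of the ribosomal protein genes 0 of 60 fell and 3 rose, or 8 with quantile normalisation.

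The 2 experiments differ in dose, control, unit and test, so their values stand side by side. Across the 38 genes the log2 fold changes at 10 nM for 48 h and in survivors of 100 nM had Pearson's r = 0.62 and Spearman's rho = 0.59, a description across genes, which are not independent replicates. Over the 13550 genes tested in both, r was 0.78 and rho 0.80. LYAR was lowest in both. WDR12, the highest at 10 nM with -0.69, stood at -1.43 in survivors, while WDR3 and HEATR1, at -0.91 and -0.78 with 10 nM, were the nearest to 0 in survivors. MYC had 161 and 161 FPKM in untreated cells and 48.0 and 55.7 FPKM in survivors (-1.62 ± 0.43, limma adjusted p = 0.052).

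**Figure D5:**
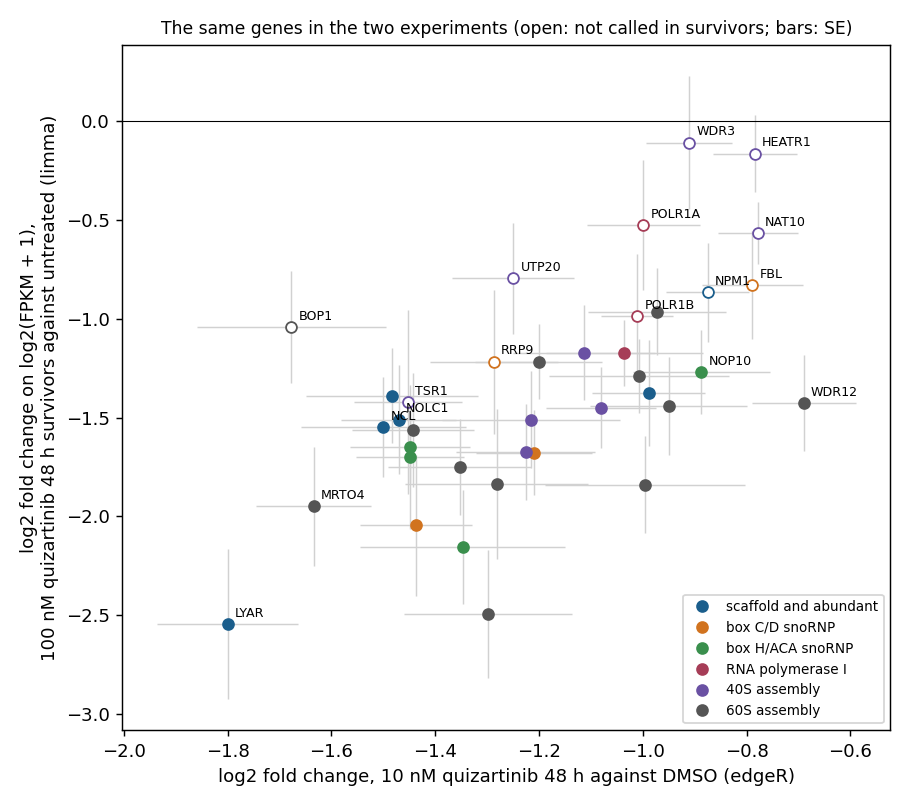
Log2 fold change of the 38 genes at 10 nM quizartinib for 48 h against DMSO (horizontal) and in survivors of 100 nM against untreated cells (vertical, on log2(FPKM + 1)), with bars of 1 SE. Filled points were called in survivors (27) and open points were not (11); LYAR is lowest on both axes, and WDR3 and HEATR1 lie nearest to 0 on the vertical axis.

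After 13 days without drug the picture depended on the library. NCL had 887 and 519 FPKM, NOP56 had 374 and 167 FPKM, and LYAR had 24.4 and 10.2 FPKM in the first and second library. For each of these the second library lay near or below the survivors and the first between survivors and untreated cells. Of the 38 genes 37 were lower in the second library than in the first. The FPKM of the 38 genes summed to 8172 and 8866 in untreated cells, 3365 and 3891 in survivors, 5535 and 3452 at 13 days, and 7459 and 7876 at 30 days. The second 13 day library also had 264113 FPKM over mitochondrial messenger and ribosomal RNAs, against 169411 in the first and 118198 to 189843 in the other libraries; the part of this in the gene values was not tested.

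Against untreated cells none of the 38 genes was called at 13 days by limma (0.249% of all genes fell and 0.133% rose). Yet 37 fold changes were negative, and the median was -0.97 against -0.05 over all genes. An unadjusted p under 0.05 was seen in 29 genes, a looser rule that the percentages above do not match. Without the share of all genes under that rule, whether 29 is many cannot be judged. The lowest were LYAR (-1.77 ± 0.38), NCL (-1.35 ± 0.25) and GAR1 (-1.34 ± 0.29). The exception in sign was RRP12, with 35.7 and 26.96 FPKM at 13 days, 24.96 and 36.3 FPKM in untreated cells and 10.2 and 9.68 FPKM in survivors. That sign rests on the first 13 day library: RRP12 stood at -0.16 without it, when all 38 values were negative, and at 0.24 without the second, when BOP1 and NHP2 were positive too. Without the first 13 day library the median was -1.20, and without the second it was -0.64.

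Between survivors and 13 days the median was 0.53 and 32 of the 38 fold changes were positive, but limma called none (0.669% of all genes fell and 0.177% rose). An unadjusted p under 0.05 was seen in 18, again with no share of all genes to set beside it. The highest were RRP12 (1.55 ± 0.25, limma adjusted p = 0.057), NOP16 (1.45 ± 0.32) and NHP2 (1.22 ± 0.36). In 23 genes both 13 day libraries lay above both survivor libraries, where 15.5% of all genes did. In 4 genes, POLR1A, HEATR1, WDR3 and NAT10, both lay below, where 34.4% of all genes did. WDR3 had 10.5 and 9.34 FPKM in survivors and 5.46 and 3.21 FPKM at 13 days (-1.07 ± 0.34, limma adjusted p = 0.14), and HEATR1 had 12.8 and 15.6 FPKM and then 6.96 and 7.76 FPKM (-0.86 ± 0.20, limma adjusted p = 0.088). Without the second 13 day library the median was 0.84 with 34 positive fold changes, and without the first it was 0.23 with 26 positive.

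After 30 days none of the 38 genes was called against untreated cells by limma (0.0497% of all genes fell and 0.0774% rose), and none had an unadjusted p under 0.05. The median was -0.23, and 34 fold changes were negative. In 23 genes both 30 day libraries were still below both untreated libraries, where 16.8% of all genes were. NCL had 1468 and 1558 FPKM, below both untreated values, NPM1 had 2145 and 2645 FPKM, which overlapped them, and LYAR had 39.7 and 43.2 FPKM, also below both. The lowest was GAR1 with 41.8 and 38.3 FPKM, at -0.49 ± 0.29. Between 13 and 30 days the median was 0.72 and 37 fold changes were positive, with none called by limma (0.0774% of all genes fell and 0.326% rose). At an unadjusted p under 0.05 there were 21, also with no share of all genes to set beside it. LYAR (1.33 ± 0.38), WDR3 (1.28 ± 0.34) and NCL (1.15 ± 0.25) had the highest values, and RRP12 (-0.30 ± 0.25) the lowest. Without the first 13 day library the median was 0.96, and without the second it was 0.39.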

How the data were processed

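For the 18 drug libraries the authors deposited whole-number counts per gene, whose totals differ, so they were used as raw counts. The submitters' processing notes name GRCh38 and, without role or order, RSEM, DESeq2, edgeR, STAR 2.7.3 and CASAVA. For the 8 recovery libraries the authors deposited FPKM per gene, per the file headers, made with CASAVA, TopHat2 2.0.9 and Cuffdiff on hg38, per the submitters' processing notes, and the scaling between libraries is not given in the sources used here.

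Counts entered edgeR 4.0.16 after TMM scaling (quasi-likelihood fit of all 18 libraries; filterByExpr kept all 16430 genes). For FPKM, limma 3.58.1 with a trend was run on log2(FPKM + 1) of the 8 libraries, with the 18098 genes that reached 1 FPKM in 2 libraries. This scale understates changes of low genes. Calls needed an adjusted p (Benjamini-Hochberg, over all genes of the comparison) under 0.05. DESeq2 1.42.0 was an alternative. R was 4.3.3, Python 3.11.15, pandas 2.3.3 and matplotlib 3.10.9. The models were tested on simulated data. With 3 libraries against 3 an exact permutation test cannot go below p = 0.1.

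Same-numbered libraries deviated together, every correlation above 0.1, in 5 of the 7 drug comparisons between groups, not for the combination against DMSO at 48 h or against quizartinib at 5 days. Libraries of unlike number could deviate together as much. For dexamethasone against DMSO r was 0.33 and 0.35 between libraries numbered 1 and 2, and 0.34 between the libraries numbered 2. Between the libraries numbered 3 it was 0.73, and between a library numbered 3 and one of another number it ran from -0.53 to -0.47. The libraries numbered 3 thus shared a deviation there, while numbers 1 and 2 were not told apart. The main fit had no term for the number, and the labels give only numbers. The 38 genes and the other lists were chosen with earlier results of these data known. Every gene of the list is named; values per library are given for NCL, NPM1, FBL and the lowest and highest gene of each role at 48 h, and statistics for all genes not called in survivors. Other values per library, and remarks on single libraries, were chosen after the values were seen.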

Additional observations from a re-analysis of the deposited data

How the results depend on the processing

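In all, 344 of 374 alternative counts of called genes stayed within 1.5 times the reported ones. In most comparisons the reported count was 0 or all 38 genes, so this total says little about the counts in between. The 38 falls with quizartinib at 48 h or 5 days, or with both drugs against DMSO, stayed 38 under every alternative run, including DESeq2, other scalings and each library left out. For dexamethasone alone, the replicate block gave 1 gene lower and 1 higher, DESeq2 gave 1 higher, leaving out the 48 h libraries numbered 3 gave 5 higher, and single libraries left out gave 0 to 3 lower and 0 to 2 higher. For the combination against quizartinib at 48 h, 0 genes were lower in the fit of the groups compared alone and 0 without the libraries numbered 3, against 2 reported, with 0 to 4 lower and 0 to 1 higher when single libraries were left out. At 5 days the same comparison gave 4 lower and 1 higher with the groups compared alone, and 3 lower and 1 higher without the 48 h libraries numbered 3. For quizartinib at 5 days against 48 h, leave-one-out counts ran from 1 to 2 lower. For survivors against untreated cells no filter on low FPKM gave 15 lower, the replicate block 28, and leave-one-out fits 0 to 34. At 13 days leave-one-out fits gave 0 to 29 lower against untreated cells, and 0 to 1 lower and 0 to 20 higher against survivors, where quantile normalisation gave 1 higher. Between 13 and 30 days they gave 0 to 22 higher. The fold change of WDR3 in survivors turned to 0.11 without the first untreated library and was -0.33 without the second. Causes of these moves were not tested, apart from the fewer libraries that leave-one-out fits hold by construction. A group left with 1 library is assumed to vary like the others. The fits that gave the highest counts in comparisons with 13 days also called more of all genes than the main fits did. Those counts therefore cannot be read as a change in the 38 genes alone. In the recovery experiment same-numbered libraries correlated weakly and there are only 2 pairs, so the block there stands on a shared number alone. Alternatives that leave out a 13 day library from comparisons it is not part of, or from the relation to exon length, were chosen after seeing the data.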

Other observations

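Across the 38 genes, log2 exonic length and the log2 fold change of survivors against untreated cells had Pearson's r = 0.53, as a description of genes that share the same libraries. For 13 days against survivors r was -0.63, or -0.58 without the first and -0.63 without the second 13 day library. These values share the survivor libraries with opposite sign, so neither is separate support for the other. For 13 days against untreated cells r was -0.19, for 30 days against 13 days 0.27, and at 10 nM for 48 h 0.18. Over all 17482 genes with a length r was 0.02 in each of the first 2 of these comparisons, and Spearman's rho was 0.06 and -0.14. Across the 38 genes rho was 0.46 and -0.60 in the same 2 comparisons. The 4 longest transcripts are POLR1A (12749 bases of exon), WDR3 (10133), UTP20 (9025) and HEATR1 (8782), and none of them was called in survivors. They also have low levels in untreated cells, from 4.34 to 23.7 FPKM, so length and level cannot be told apart here.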
